A study of Mus musculus with 6 samples.

Results

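The cell cycle and DNA replication genes described here are 46 protein-coding genes that were listed by symbol, from the Mcm helicase subunits to the cyclins, their kinases, the mitotic regulators and Myc. Each was found by an exact match to the gene name in the deposited count table, which held 54532 genes, and all 46 had enough counts to enter the comparison among the 12296 genes tested. N9 cells, an immortalised mouse microglial line grown in serum-containing RPMI medium, were left untreated in the control group or were given LPS at 1 µg/ml for 6 h in the treated group. LPS is the bacterial cell wall lipid that activates Toll-like receptor 4. Each group held 3 RNA-seq libraries. All 6 libraries come from 1 line under the same culture conditions, and no source used here says that they came from separate cultures, so p-values measure only the spread between these libraries.

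A dividing cell first loads the Mcm helicase onto replication origins, then commits to S phase when cyclin D and cyclin E kinases inactivate RB and release E2F transcription factors, which switch on the genes for replication enzymes and nucleotide supply. Later genes of the cycle, which drive chromosome condensation, spindle assembly and division, are held down in resting cells by the DREAM complex through CHR elements and are active in G2 and mitosis. Microglia divide slowly in the healthy brain, whereas a microglial line divides continuously in culture, and in macrophages LPS is known for slowing division.

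Total counts ran from 16363767 to 17956772 per library, and the 10 most abundant genes took 5.25 to 5.59% of them. The microglial line expressed the myeloid genes Ptprc, Csf1r, Cd68, Tyrobp and Spi1, but the microglial marker genes P2ry12 (3 to 6 counts in every library) and Aif1 (4 to 9 counts) were near 0. The 5 tested genes of 6 on a list of LPS-induced genes were all higher with LPS. Of 10 hepatocyte marker genes, 1 had enough counts to be tested, and their summed level was 5.31, 12.1 and 14.6 CPM in control libraries 1, 2 and 3 against 4.88, 5.12 and 6.82 CPM in the LPS libraries. CPM here is the count scaled to the library total after TMM scaling. Fibroblast marker genes (6, led by the collagens Col1a1, Col1a2 and Col3a1) also set libraries apart, with summed levels of 11.7, 0.454 and 7.69 CPM in the controls and 8.11, 0.793 and 0.792 CPM with LPS. The marker lists of other brain cells were mixed. Summed levels were 96.0 to 98.7 CPM in controls and 96.0 to 105 CPM with LPS for 6 astrocyte genes, 34.5 to 35.1 and 37.1 to 40.5 CPM for 6 neuron genes, and 33.6 to 40.3 and 28.3 to 29.7 CPM for 6 oligodendrocyte genes. The counts came mostly from Gja1, Aldh1l1, Map2, Syn1, Tubb3 and Mbp, of which Gja1 and Tubb3 rose (log2 0.18 and 1.67), Aldh1l1, Map2 and Mbp fell (-0.29, -0.41 and -0.34) and Syn1 did not pass the test (0.10), while Gfap, Aqp4, Rbfox3, Snap25 and Mog had at most 10 counts in any library. The part of these trace transcripts in the results below was not tested. A fit without control libraries 2 and 3, which had the most hepatocyte transcripts, keeps 1 control library, the one with the most fibroblast transcripts, and takes its spread from the LPS libraries alone. It called 30 members lower and 2 higher with LPS, and over all genes tested in that fit 8.89% were lower and 13.0% higher.

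Most of the members were lower in the LPS libraries. In the edgeR comparison, where a gene is said to have risen or fallen when its adjusted p over all genes tested was below 0.05, 37 of the 46 members fell, 3 rose (Myc, Cdk6 and Cdc25a) and 6 did not pass the test (Mcm10, Ccnd2, Ccnd3, Cdk4, Aurka and Cdkn1b). Over all genes tested, 15.7% fell and 18.7% rose. The members' log2 fold changes had a median of -0.37 and ranged from -1.03 to 2.95, and the median over all genes tested was 0.00. Summed over the 46 genes, the level was 7715, 7880 and 7734 CPM in control libraries 1, 2 and 3 and 6286, 6332 and 6220 CPM in LPS libraries 1, 2 and 3. Every LPS library therefore lay below every control library, and the mean was 19.3% lower. In bulk RNA, fewer cells in S phase or mitosis and less RNA of these genes per cell cannot be told apart.

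**Figure D1:**
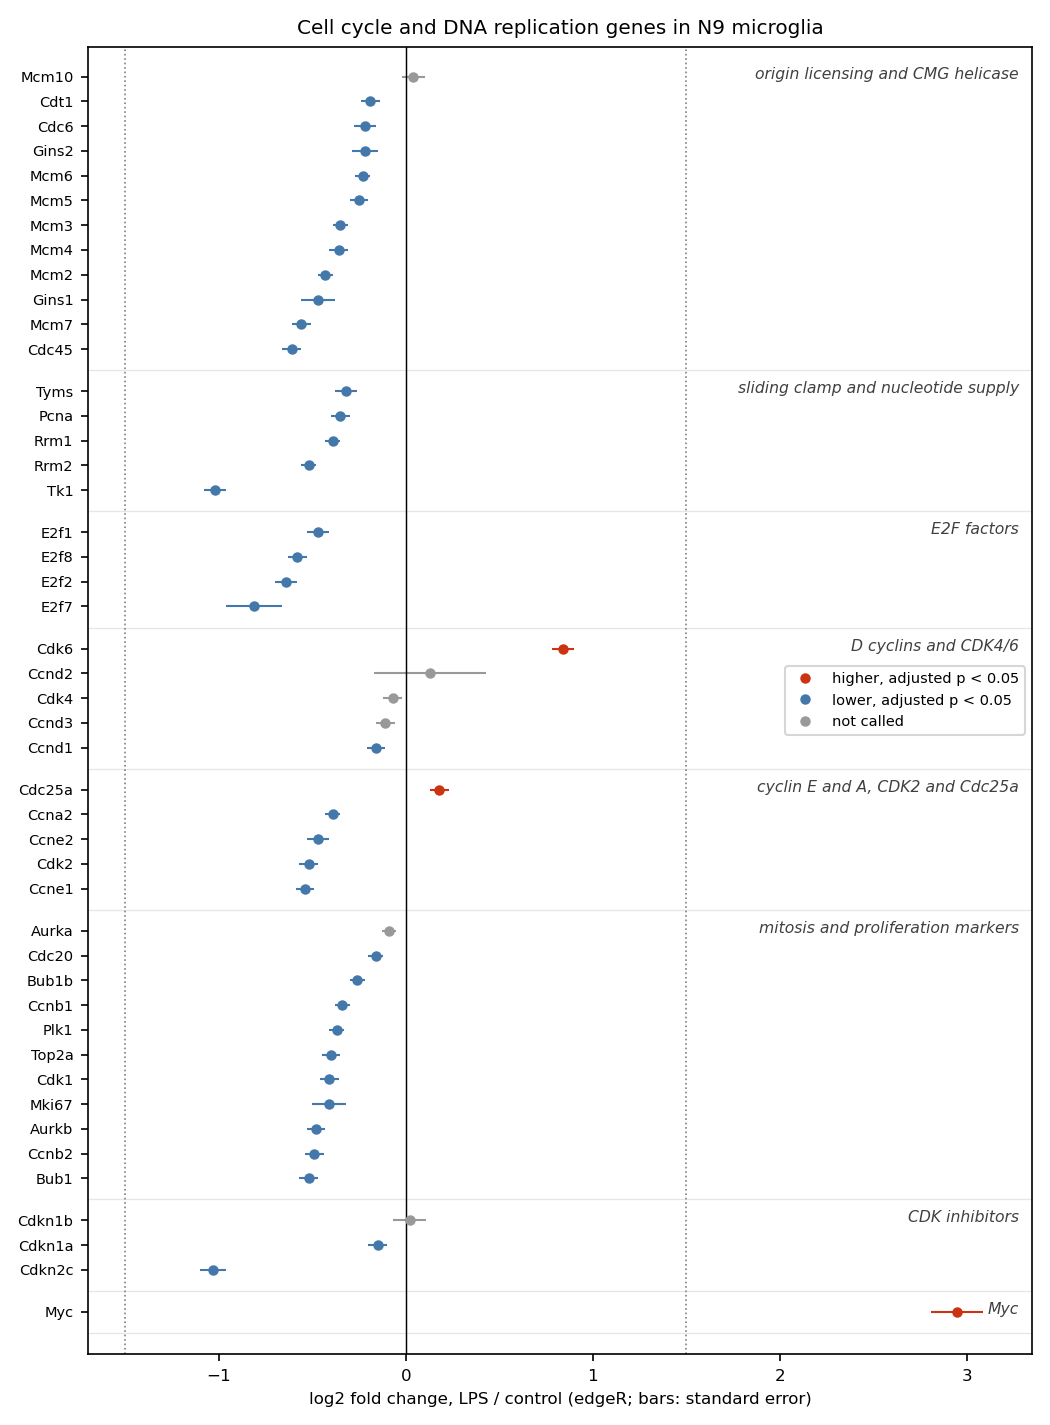
Log2 fold change (LPS over control, horizontal axis) of each of the 46 members, grouped by role on the vertical axis, with bars of 1 standard error from the edgeR fit. Points lie to the left of 0 for 37 members that fell, with Tk1 at -1.02 and Cdkn2c at -1.03 furthest out, while Myc at 2.95 and Cdk6 at 0.84 lie furthest to the right.

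In 39 of the 46 members the controls were all higher than the LPS libraries, against 21.5% of all genes tested, and in 3 members they were all lower, against 23.7%. Besides the 37 that fell, the 39 include Ccnd3 and Aurka, which missed the test. Members were mostly well counted, which bears on how many can pass. Among the 41 members with a mean of at least 500 counts, a limit chosen after the values were seen, 35 fell and 2 rose, whereas 18.8% of all equally well counted genes fell and 25.7% rose. At the study's threshold for a differentially expressed gene (DEG), an adjusted p below 0.05 with a log2 fold change beyond 1.5 in either direction, Myc was the 1 member called, and 2.65% of all genes tested were. The other 39 members that passed changed by at most about 2-fold, and their control and LPS libraries did not overlap.

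**Figure D2:**
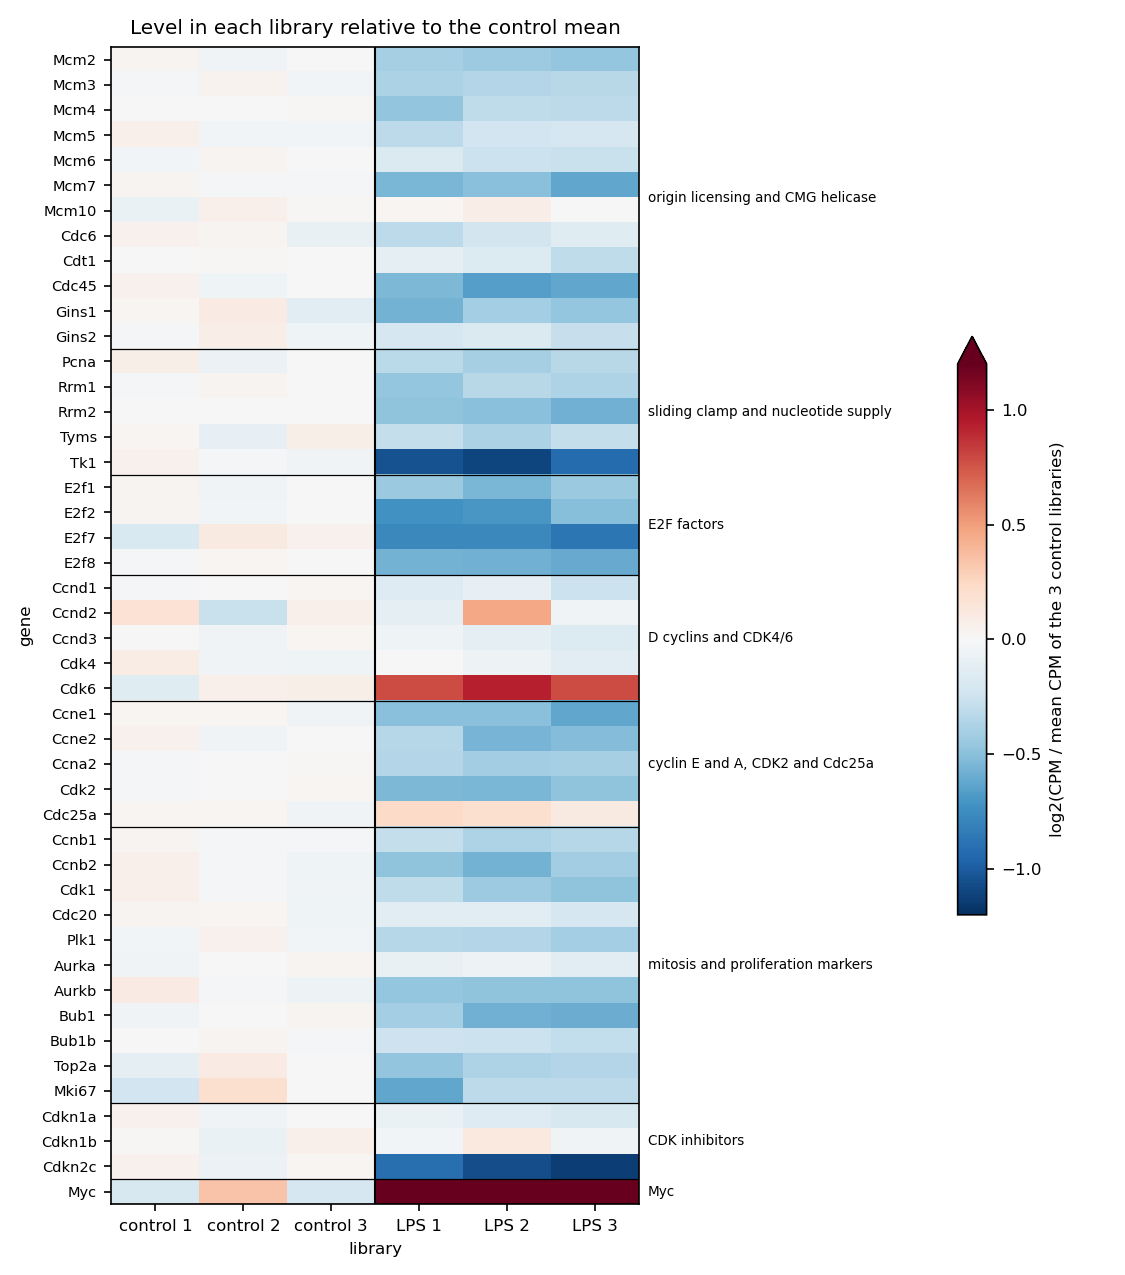
Heat map of the 46 members (rows, ordered by role) in the 6 libraries (columns), coloured by the log2 ratio of the CPM to that gene's mean in the 3 control libraries, with the colour scale ending short of the LPS values of Myc. The 3 LPS columns are blue for the 37 members that fell and red for Myc, Cdk6 and Cdc25a, at similar depth in each column.

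Of the 12 members that license origins or form the helicase, 11 fell and none rose, with a median log2 fold change of -0.30. Their summed level went from 2128, 2136 and 2104 CPM in the control libraries to 1723, 1724 and 1694 CPM with LPS, a fall in the mean of 19.3%. Cdc45, which joins the Mcm2 to Mcm7 ring and GINS to make the active helicase, fell the most. It stood at 81.0, 75.3 and 77.6 CPM in the controls and at 53.7, 49.3 and 50.7 CPM with LPS, so the groups did not overlap, and its log2 fold change was -0.61 (SE 0.05, edgeR adjusted p = 5.4e-07). Mcm7, a subunit of the ring itself, went from 205, 198 and 198 CPM to 137, 141 and 130 CPM (log2 -0.56, SE 0.05, adjusted p = 1.9e-07). Gins1, a subunit of GINS, went from 25.7, 27.0 and 23.0 CPM to 17.1, 19.1 and 18.3 CPM (log2 -0.47, SE 0.09, adjusted p = 8.5e-04). In all 3 genes the lowest control library was above the highest LPS library.

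The other ring subunits fell by less, with log2 fold changes of -0.43 for Mcm2, -0.36 for Mcm4, -0.35 for Mcm3, -0.25 for Mcm5 and -0.23 for Mcm6. Each of these kept its call in every fit that left out 1 library. Mcm6 was the most abundant of the helicase genes per kilobase of gene length, at 119 ± 2.73 CPM per kb (SD, n = 3) in controls and 101 ± 3.43 with LPS. The loading factors fell only slightly, Cdc6 by 0.22 and Cdt1 by 0.19 on the log2 scale, and so did Gins2, which fell by 0.22. Those 3 calls were marginal. Without LPS replicate 1, Cdc6 had an edgeR adjusted p of 0.0567, without LPS replicate 3, Cdt1 had one of 0.0524, and Gins2 had one of 0.0833 without LPS replicate 3 and of 0.0864 without control replicate 2. Mcm10, which helps to fire the loaded helicase, was the exception in this group. It read 58.5, 64.7 and 62.7 CPM in controls and 63.1, 65.4 and 62.0 CPM with LPS, with overlapping groups and a log2 fold change of 0.04 (SE 0.06, adjusted p = 0.666).

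Promoter windows of 300 bases (250 before and 50 after the start site) were taken from RefSeq, build GRCm38.p6, and 37 of the 46 members had one. No window was given for Ccna2, Gins2, Mcm4, Aurkb, Ccnd1, Ccne2, Gins1, Ccnd2 or Myc. The windows were searched on both strands for E2F motifs, spelled TTTCGCGC, TTTGGCGC or TTTCCCGC. The search for CHR elements took the spelling TTTGAA and the spelling TTCGAA, whereas the CCAAT box was searched by the letters of its name. An E-box was the palindrome CACGTG. Of all matches in the members' windows, 2 overlapped a match of another motif. An E2F motif stood in the windows of 11 of the 37 members (29.7%). It stood in those of 2.12% of the 27025 genes with a window, tested here or not, the set used for every motif. Counted by window, it was in 26.2% of the 42 members' windows and in 1.84% of all 32851. Of the 9 helicase and licensing genes with a window, 6 held one: Mcm3, Mcm5, Mcm6, Mcm7, Cdc6 and Cdt1. Not every window is at the start listed in the count table: 10 of the 42, from 8 members, lie wholly downstream of it, and Cdc6, Cdk6, Cdkn2c, E2f1 and Mcm7 have no other window. The E2F motifs of Cdc6 and Mcm7 are in such windows. The window of Mcm6 is shown because it holds the most E2F motifs of the windows printed here. It is at chr1:128359656-128359955 on the minus strand, and capitals mark the E2F motifs and CCAAT boxes.
Mcm6: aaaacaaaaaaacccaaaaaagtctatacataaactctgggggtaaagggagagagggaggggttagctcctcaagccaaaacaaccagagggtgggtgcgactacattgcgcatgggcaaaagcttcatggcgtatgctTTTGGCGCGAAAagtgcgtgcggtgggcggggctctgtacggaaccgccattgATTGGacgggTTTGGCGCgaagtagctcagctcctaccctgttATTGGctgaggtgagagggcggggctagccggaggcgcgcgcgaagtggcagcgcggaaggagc
Read on both strands, it has E2F motifs at 110, 106 and 47 bases before the start, of which the first and the second overlap each other, and CCAAT boxes at 57 and 14 bases before it. A match to these letters is a description of the window and no evidence of a bound factor.

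All 5 members that clamp the polymerase or supply nucleotides fell. The summed level of these genes was 1248, 1217 and 1226 CPM in controls and 897, 897 and 899 CPM with LPS, a mean 27.0% lower. Tk1, thymidine kinase, which salvages thymidine into the nucleotide pool, changed the most of any gene in the group. Its levels were 108, 103 and 101 CPM in the controls and 50.5, 48.5 and 54.7 CPM with LPS. The mean with LPS was thus 0.494 times that of the controls, a log2 fold change of -1.02 (SE 0.06, edgeR adjusted p = 1.7e-09). Rrm2 and Rrm1 encode the small and the large subunit of ribonucleotide reductase, which makes deoxynucleotides. Rrm2 went from 350, 352 and 349 CPM to 251, 248 and 234 CPM (log2 -0.52, SE 0.04, adjusted p = 1.6e-07). Rrm1 went from 341, 354 and 347 CPM to 252, 275 and 269 CPM (log2 -0.39, SE 0.04, adjusted p = 5.7e-06). Neither gene had an LPS library within the range of the controls. Pcna, the sliding clamp, had the highest level per kilobase of all 46 members, at 157 ± 7.83 CPM per kb (SD, n = 3) in controls and 123 ± 3.34 with LPS, a log2 fold change of -0.35. Tyms, thymidylate synthase, fell by 0.32 on the same scale. None of these 5 genes had an E2F motif of the letters searched in its window.

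The 4 E2F factors among the members all fell, and as a group they had the lowest median log2 fold change of the role groups with more than 1 member (-0.61). E2f7 and E2f8 are atypical family members that repress E2F targets, and E2f1 and E2f2 are activators. E2f7 was scarce, with 7.18, 8.79 and 8.45 CPM in controls and 4.75, 4.76 and 4.45 CPM with LPS (log2 -0.81, SE 0.15, edgeR adjusted p = 5.6e-04). It had 123 to 157 counts per control library and 73 to 78 per LPS library, and the groups did not overlap. E2f2 went from 65.3, 62.6 and 63.7 CPM to 38.7, 39.5 and 44.9 CPM (log2 -0.64, SE 0.06, adjusted p = 1.7e-06). E2f8 went from 82.3, 85.3 and 83.4 CPM to 56.4, 56.3 and 55.0 CPM (log2 -0.58, SE 0.05, adjusted p = 2.1e-07). E2f1 was the least changed of the 4, at -0.47. The activators and the repressors thus fell alike in direction. E2F motifs were in the windows of E2f2 and E2f7.

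Of the 5 genes for D cyclins and their kinases, 1 fell (Ccnd1), 1 rose (Cdk6) and 3 did not pass the test. These shares of 1 in 5 each way are near the 15.7% lower and 18.7% higher over all genes tested, and with total counts as library size Ccnd3 (edgeR adjusted p = 0.00274) and Cdk4 (0.0177) passed as lower too. Summed over the 5 genes, the 749, 736 and 746 CPM of the controls overlapped the 780, 790 and 730 CPM of the LPS libraries. Cdk6, a kinase that phosphorylates RB when bound to a D cyclin, read 82.6, 95.1 and 96.0 CPM in controls and 157, 174 and 157 CPM with LPS. All LPS libraries were far above all control libraries, with a log2 fold change of 0.84 (SE 0.06, edgeR adjusted p = 6.0e-08). Cdk4, its close relative, read 290, 264 and 263 CPM in controls and 273, 260 and 247 CPM with LPS, with overlapping groups and an adjusted p of 0.353. Per kilobase, Cdk6 therefore went from 6.21, 7.71 and 7.82% of the summed Cdk4 and Cdk6 level in control libraries 1, 2 and 3 to 11.8, 13.5 and 12.9% with LPS, while Cdk4 remained the more abundant transcript.

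Cyclin D1, encoded by Ccnd1, dominated the D cyclins per kilobase, with 81.3% of their summed level in controls and 80.6% with LPS. Ccnd1 read 262, 265 and 270 CPM in controls and 239, 249 and 223 CPM with LPS, a small non-overlapping difference (log2 -0.16, SE 0.05, edgeR adjusted p = 0.0138) that did not pass without LPS replicate 3 (0.0748) or without control replicate 3 (0.058). Ccnd3 had 18.5% of the D cyclin level in controls and 19.1% with LPS. Its LPS libraries, at 109, 104 and 101 CPM, were just below the controls at 113, 110 and 115 CPM, with an adjusted p of 0.0961. Ccnd2 was barely present, at 22 to 29 counts per control library and 22 to 34 per LPS library, and its log2 fold change of 0.13 had an SE of 0.30. At that depth a moderate change of Ccnd2 was not detectable. The window of Cdk6 is shown because this gene was 1 of the 3 members that rose. It is at chr5:3343643-3343942 on the plus strand, downstream of the gene start listed in the count table (the gene spans chr5:3341485-3531008), and the capitals mark an E-box 220 bases before the RefSeq start.
Cdk6: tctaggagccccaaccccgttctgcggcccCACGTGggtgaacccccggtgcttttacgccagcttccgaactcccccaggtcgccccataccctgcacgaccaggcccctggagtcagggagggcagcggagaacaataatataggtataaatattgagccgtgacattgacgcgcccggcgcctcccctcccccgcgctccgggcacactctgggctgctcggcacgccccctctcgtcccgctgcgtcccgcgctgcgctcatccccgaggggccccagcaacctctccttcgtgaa
E-boxes were in the windows of 4 members (Cdk4, Cdk6, Cdkn2c and Tyms), 10.8% of the 37, and in those of 8.09% of all genes.

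**Figure D3:**
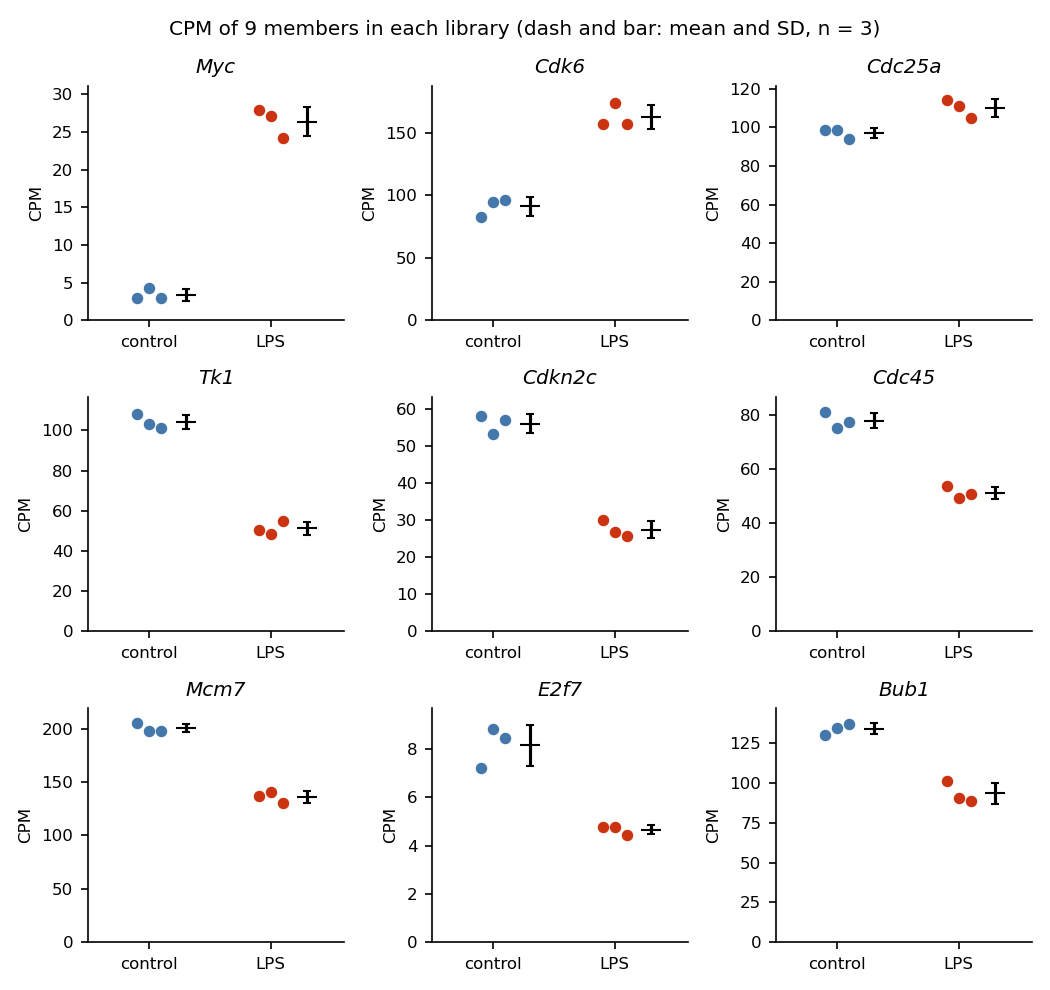
CPM in each of the 6 libraries (points, control in blue and LPS in red, with a dash and bar for the mean and SD, n = 3) for members described in the text, 1 panel per gene with its own vertical axis from 0. Tk1 and Cdkn2c are lower in all 3 LPS libraries, and Myc and Cdk6 are higher in all 3.

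Of the 5 genes of the G1 to S transition that act after the D cyclins, 4 fell and 1 rose. Ccne1 and Ccne2 encode the E cyclins, which activate Cdk2 at the entry to S phase. Ccne1 went from 111, 111 and 106 CPM to 77.2, 77.0 and 70.6 CPM (log2 -0.54, SE 0.05, edgeR adjusted p = 6.1e-07). Ccne2 went from 75.2, 70.3 and 72.1 CPM to 57.1, 49.1 and 50.5 CPM (log2 -0.47, SE 0.06, adjusted p = 2.7e-05). Cdk2 itself went from 84.6, 86.3 and 87.4 CPM to 59.1, 59.0 and 61.6 CPM (log2 -0.52, SE 0.05, adjusted p = 6.4e-07). The kinase and both of its E cyclins were thus lower in every LPS library. Ccna2, cyclin A, which acts through S phase and G2, fell by 0.39 on the log2 scale.

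Cdc25a, the phosphatase that removes inhibitory phosphates from Cdk2 and Cdk1, rose. It read 98.8, 98.7 and 94.1 CPM in controls and 114, 111 and 105 CPM with LPS (log2 0.18, SE 0.05, edgeR adjusted p = 0.0099). The groups did not overlap, but the call was lost without control replicate 3 (adjusted p = 0.0766) and with total counts as library size (0.197). Its window, at chr9:109875329-109875628 on the plus strand, is shown because it holds an E2F motif like those of members that fell. Capitals mark that motif, 67 bases before the start, and CCAAT boxes at 131 and 81 bases before it.
Cdc25a: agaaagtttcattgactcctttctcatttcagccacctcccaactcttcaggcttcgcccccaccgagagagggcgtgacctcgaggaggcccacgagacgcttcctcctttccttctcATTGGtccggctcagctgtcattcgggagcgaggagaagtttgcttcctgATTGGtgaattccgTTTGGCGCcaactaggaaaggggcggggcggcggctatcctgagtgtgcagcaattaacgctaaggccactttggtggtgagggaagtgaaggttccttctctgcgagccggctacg
Among the 30 members that fell and had a window, 10 held an E2F motif (33.3%), so Cdc25a is the 1 holder that did not fall.

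Of the 11 mitotic genes and proliferation markers, 10 fell, none rose and Aurka did not pass the test, with a median log2 fold change of -0.40. Their summed level was 2443, 2663 and 2525 CPM in controls and 1953, 2023 and 2008 CPM with LPS, a mean 21.6% lower. Bub1, a kinase of the spindle checkpoint, went from 130, 134 and 137 CPM to 101, 90.1 and 88.5 CPM (log2 -0.52, SE 0.05, edgeR adjusted p = 2.1e-06). Ccnb2, a B cyclin that partners Cdk1 in mitosis, went from 91.4, 87.1 and 84.5 CPM to 62.7, 59.1 and 65.8 CPM (log2 -0.49, SE 0.05, adjusted p = 5.5e-06). Aurkb, the kinase of the chromosomal passenger complex, went from 111, 102 and 100 CPM to 75.3, 74.2 and 74.4 CPM (log2 -0.48, SE 0.05, adjusted p = 2.2e-06). All 3 genes had every LPS library well below every control library.

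Cdk1, the mitotic kinase, fell by 0.41 on the log2 scale, Ccnb1 by 0.34, the kinase Plk1 by 0.37 and the checkpoint gene Bub1b by 0.26. Cdc20, which activates the anaphase-promoting complex, fell by 0.16 and missed the test without LPS replicate 3 (edgeR adjusted p = 0.0643). Among these mitotic genes and markers, Mki67, the gene of the Ki-67 proliferation antigen, varied the most within groups. It read 468, 626 and 547 CPM in controls and 356, 439 and 440 CPM with LPS. Its groups did not overlap (log2 -0.41, SE 0.09, adjusted p = 0.00259), but it missed the test with a robust dispersion estimate (0.122). Top2a, the topoisomerase that untangles sister chromosomes, read 439, 507 and 477 CPM in controls and 342, 366 and 371 CPM with LPS (log2 -0.40). For both of these long proliferation-marker transcripts, replicate 1 was the lowest library in each group. Aurka, the centrosome kinase, read 185, 192 and 195 CPM in controls and 179, 183 and 175 CPM with LPS, which did not overlap but missed the test (log2 -0.09, SE 0.04, adjusted p = 0.113).

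CHR elements stood in the windows of 9 of the 10 mitotic members with a window, all but Ccnb1, and CCAAT boxes in all 10. Over the 37 members with a window, 14 held a CHR element (37.8%), against 21.7% of all genes, and 28 held a CCAAT box (75.7%), against 41.1%. The other 5 holders of a CHR element were Mcm2, Mcm7, Cdc45, E2f2 and E2f8. In Mcm7 and E2f2 the CHR element is in a window wholly downstream of the start listed in the count table. Of the mitotic members, Cdk1 was the 1 with an E2F motif as well. The windows of Cdk1 (chr10:69352863-69353162, minus strand) and Ccnb2 (chr9:70421505-70421804, minus strand) are shown for this arrangement, with CHR elements, CCAAT boxes and the E2F motif in capitals.
Cdk1: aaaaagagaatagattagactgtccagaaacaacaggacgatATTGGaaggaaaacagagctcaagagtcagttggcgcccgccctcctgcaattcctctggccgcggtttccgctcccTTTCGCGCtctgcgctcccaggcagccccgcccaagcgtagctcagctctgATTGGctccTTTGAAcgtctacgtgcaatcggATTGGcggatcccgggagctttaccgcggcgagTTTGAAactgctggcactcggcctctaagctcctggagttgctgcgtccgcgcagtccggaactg
Ccnb2: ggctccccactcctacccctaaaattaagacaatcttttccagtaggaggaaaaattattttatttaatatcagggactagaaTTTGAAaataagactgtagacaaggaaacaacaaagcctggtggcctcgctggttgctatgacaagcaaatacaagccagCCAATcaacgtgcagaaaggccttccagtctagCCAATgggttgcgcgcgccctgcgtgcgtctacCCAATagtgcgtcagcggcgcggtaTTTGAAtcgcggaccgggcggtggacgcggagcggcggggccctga
In Cdk1 the E2F motif (TTTCGCGC) lies 131 bases before the start, CHR elements (TTTGAA) lie 71 and 15 bases before it, and CCAAT boxes, read here as ATTGG, lie at 208, 80 and 48. In Ccnb2 the CCAAT boxes lie 87, 54 and 21 bases before the start and the CHR elements 167 bases before and 5 bases after it. These motifs are short, CCAAT above all, and many windows of other genes hold them.

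The 3 inhibitors of the cyclin-dependent kinases among the members did not rise. Cdkn2c, an INK4 inhibitor of Cdk4 and Cdk6, had the lowest log2 fold change of all 46 members. It read 57.9, 53.1 and 56.8 CPM in controls and 29.9, 26.8 and 25.6 CPM with LPS, so that the mean with LPS was 0.490 times that of the controls (log2 -1.03, SE 0.07, edgeR adjusted p = 2.9e-08). Cdkn1a, the inhibitor that p53 induces, read 209, 196 and 201 CPM in controls and 191, 181 and 177 CPM with LPS (log2 -0.15, SE 0.05, adjusted p = 0.0249). This small fall did not pass without LPS replicate 2 (0.0821), LPS replicate 3 (0.106) or control replicate 3 (0.0581). Cdkn1b, the inhibitor that accumulates in resting cells, read 19.7, 18.4 and 20.3 CPM in controls and 19.0, 21.2 and 18.9 CPM with LPS. Its groups overlapped and its log2 fold change was 0.02 (SE 0.09, adjusted p = 0.91).

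Myc moved most of all, and upward. This transcription factor, which drives growth and entry into the cycle, was counted 51, 76 and 55 times in the controls and 440, 445 and 398 times with LPS. Scaled, this was 2.98, 4.31 and 2.96 CPM against 27.9, 27.1 and 24.2 CPM, with no overlap, a 7.73-fold rise (log2 2.95, SE 0.14, edgeR adjusted p = 3.0e-10). Per kilobase, Myc in controls was among the scarcest members, at 1.26 ± 0.285 CPM per kb (SD, n = 3), above only E2f7 at 0.903 and Ccnd2 at 0.159. With LPS it reached 9.72 ± 0.710, still below 9 of the 12 helicase and licensing genes.

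**Figure D4:**
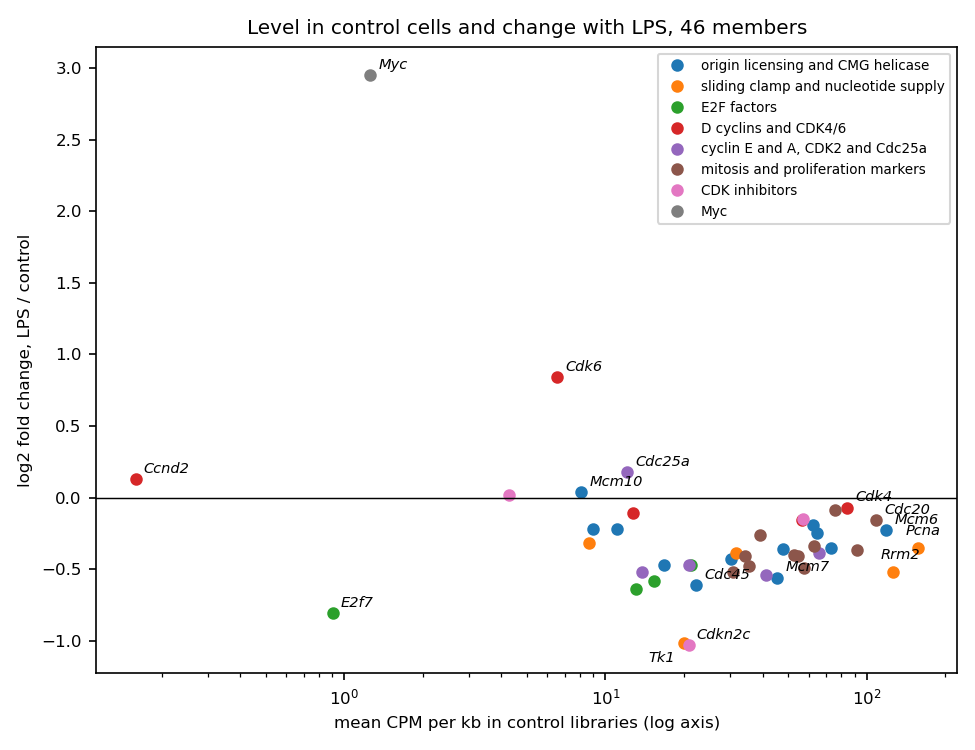
Level of each member in controls (mean CPM per kb, log axis) against its log2 fold change with LPS, coloured by role. Abundant members such as Pcna (157 CPM per kb) and Rrm2 (126) lie between 0 and -0.6, the furthest falls are Tk1 and Cdkn2c at about 20 CPM per kb, and Myc is scarce in controls and rises by 2.95.

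The rest of the pathway was read from 195 further genes in 6 lists, of which 190 were tested. Of these, 120 fell (63.2%) and 13 rose (6.84%), against 15.7% and 18.7% of all genes tested. Among 52 other replication factors 38 fell and 1 rose, with a median log2 fold change of -0.34. Clspn, which relays replication stress to the checkpoint, fell by 0.72, Gmnn, the inhibitor of Cdt1, fell by 0.68 and Pole2, a subunit of DNA polymerase epsilon, fell by 0.65. Orc1, a subunit of the origin recognition complex, was the riser, from 15.7, 15.9 and 17.6 CPM to 26.2, 25.3 and 23.0 CPM (log2 0.60, SE 0.09, edgeR adjusted p = 1.2e-04). Among 63 other mitotic genes 57 fell and none rose, with a median of -0.40. Spc25 and Nuf2, which attach kinetochores to microtubules, fell by 0.77 and 0.73, and Ncapg2, a condensin subunit, fell by 0.76.

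Of 16 genes of the RB, E2F and DREAM system 10 fell and none rose, with a median of -0.26. The largest falls were those of Rbl2 (-0.95) and Rbl1 (-0.50), RB relatives that repress cycle genes, and of Tfdp2 (-0.58), a partner of E2F factors. In the list of ubiquitin ligase parts and kinase partners, 7 of 26 fell (26.9%, against 15.7% of all genes tested) and none rose (median -0.07). The falls were led by Fbxo5 (-0.49), an inhibitor of the anaphase-promoting complex, and by the kinase subunits Cks1b (-0.38) and Cks2 (-0.37). Of the 24 tested genes of a list of other inhibitors, p53 targets and checkpoint genes, 9 rose (37.5%, against 18.7% of all genes tested) and 5 fell (20.8%, against 15.7%), with a median of -0.01. Gadd45g (log2 1.29) and Gadd45a (1.19), stress-induced growth arrest genes, rose from few counts, while Ccng2, a cyclin of resting cells, fell (-1.25). The others that rose were Plk2 (1.16), Btg1 (0.92), Mdm2 (0.91), the ligase that degrades p53, Btg2 (0.68), Gadd45b (0.66), Atrip (0.34) and Trp53, the p53 gene itself (0.32). The others that fell were Sesn1 (-0.82), Ccng1 (-0.24) and the checkpoint kinases Chek2 (-0.71) and Chek1 (-0.29). In the MYC network 3 of 9 tested genes rose and 3 fell (33.3% each way, against 18.7% and 15.7% of all genes tested). Mxd1, an antagonist that competes for the MYC partner Max, rose from 8.06, 8.11 and 8.07 CPM to 25.1, 28.8 and 21.9 CPM (log2 1.64, SE 0.11, edgeR adjusted p = 3.1e-08). Mycl, counted among the 3 that rose, went from 0, 5 and 0 counts to 11, 15 and 27, too few for a firm fold. Its entry into the test rests on the LPS libraries. Mxd3, another antagonist, fell (-0.81).

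**Figure D5:**
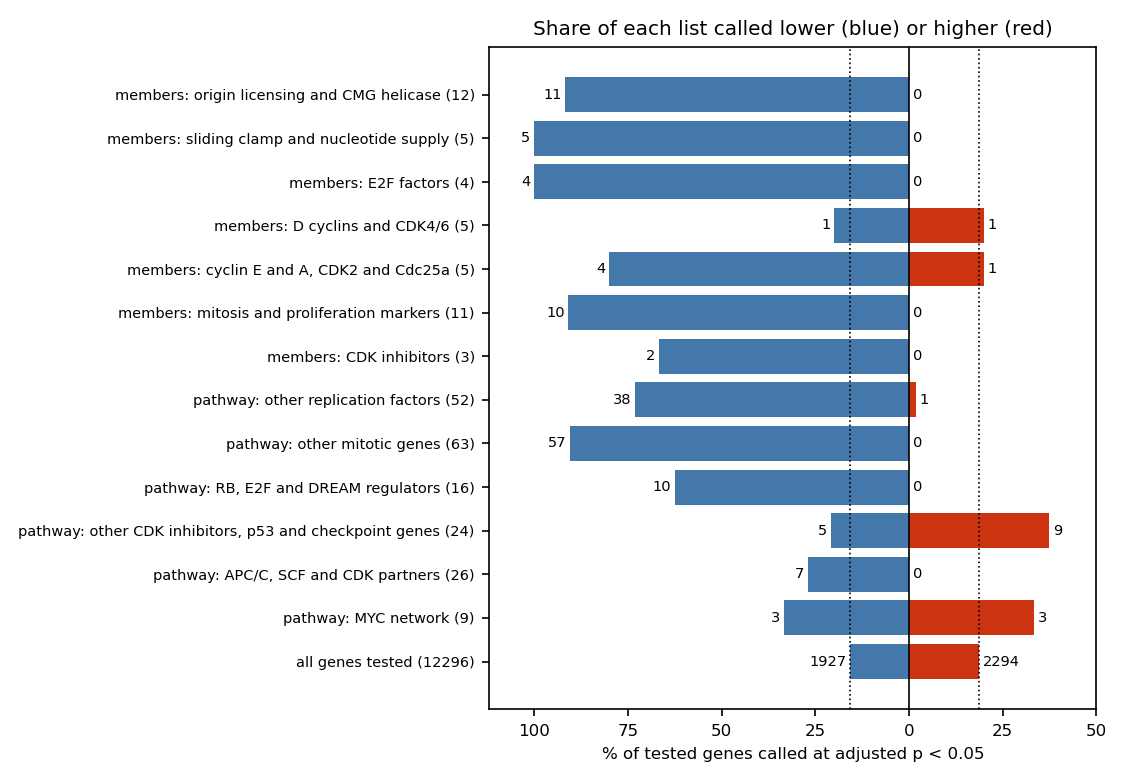
Share of the tested genes called lower (to the left of 0) and higher (to the right) with LPS at an edgeR adjusted p below 0.05, as percentages, for each role group of the members, each further pathway list and all genes tested. The helicase group has 91.7% lower and the other mitotic genes 90.5%, against 15.7% over all genes, while the list of p53 and checkpoint genes has 37.5% higher and 20.8% lower, against 18.7% and 15.7% over all genes.

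The balance of replication and mitosis genes was compared by their sums, with no test. The summed CPM of the helicase, clamp and nucleotide genes over that of the mitotic genes was 1.38, 1.26 and 1.32 in control libraries 1, 2 and 3 and 1.34, 1.30 and 1.29 with LPS, and the groups overlapped. Mki67 and Top2a, the mitotic genes with the highest CPM (not per kilobase) and low in replicate 1 of each group, weigh heavily in that ratio. The ratio of Cdt1 to its inhibitor Gmnn did not overlap between groups, again with no test. Per kilobase, the ratio of Cdt1 to Gmnn was 1.27, 1.35 and 1.41 in controls and 1.99, 2.00 and 1.66 with LPS, above every control in all 3 LPS libraries, with log2 fold changes of -0.68 for Gmnn and -0.19 for Cdt1.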

How the data were processed

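RNA-seq libraries of 3 control and 3 LPS-treated samples of N9 cells were compared. Per the labels, the authors counted reads per gene with featureCounts 1.5.0-p3 on mm10, and the deposited values are raw counts. The aligner and the strand setting are not given in the sources used here. A deposited table of the authors' own comparison (fold changes and p-values) was not used. The counts were scaled by TMM, filtered by filterByExpr and tested with the quasi-likelihood test of edgeR 4.0.16 (R 4.3.3, prior count 0.125) without a replicate block, with Benjamini-Hochberg adjustment over all genes tested. DESeq2 1.42.0 and other settings were tried as alternatives, and the code was tested on simulated data. The members and gene lists were chosen with earlier results of these data known. Values in each library were given for up to 3 members per role group with the largest change past the threshold, and for Mki67, Top2a and members that missed it or went against their group as examples chosen after their values were seen. From each further list, up to 3 genes were named by the same rule. Orc1 and the remaining called genes of the p53 and checkpoint list were added after their values were seen. Gene positions were those of the count table (mm10). The exons of 18 members overlap another gene, and for 9 of them (Ccna2, Ccnd1, Ccnd3, Ccne2, Cdc20, Cdc45, Cdk4, Gins2 and Mcm7) the partner, on the opposite strand, had at least 100 counts, so without a known strand setting these counts may include reads of the partner.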

Additional observations from a re-analysis of the deposited data

How the results depend on the processing

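Of the 46 members, 33 (31 lower, 2 higher) were called in the same direction in the reported fit and in each fit that left out 1 library, and 32 of them (30 lower, 2 higher) were also called under each of the other planned settings. The exception between these sets was Mki67, with an adjusted p of 0.122 under a robust dispersion. The number of members called lower ran from 32 to 38 with 1 library left out, and was 36 with DESeq2, where Gins2 missed the threshold (adjusted p = 0.0612), and 40 with total counts as library size, where Ccnd3 (0.00274), Cdk4 (0.0177) and Aurka (0.0026) passed it. Total counts moved the median log2 fold change of all genes to -0.0947 and the calls over all genes to 1520 higher and 3342 lower, against 2294 and 1927 with TMM. Only members that missed the test changed sign. These were Mcm10 (-0.06 with total counts, and from -0.01 to 0.06 with 1 library left out), Cdkn1b (-0.08 with total counts, and from -0.04 to 0.05 with 1 library left out) and Ccnd2 (from -0.07 to 0.24 with 1 library left out, and -0.04 with control libraries 2 and 3 left out, an alternative chosen after seeing the data that left 1 control). With the replicate number as a block, 37 members fell, 3 rose and 4474 of all genes were called, and no member's call changed. Same-numbered libraries correlated at 0.136, 0.0588 and -0.00415 in their deviations from the group means, and differently numbered ones at -0.144 to 0.0912. So few correlations cannot show whether the numbers pair the libraries. Among the members, Ccnd2 had the fewest counts (a mean of 26.7 per library), followed by E2f7 (110), and Myc was low in controls. Of the further pathway genes named, Mycl (9.67), Gadd45a (31.3), Ccng2 (60.8), Gadd45g (81.7), Btg2 (82.0) and Mxd3 (85.5) had means under 100.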
